A study of Mus musculus with 8 samples.

Results

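The 5 CD300 receptors described here and the related inhibitory receptor allergin-1 were followed in mouse macrophages in which the long noncoding RNA MAARS had been lowered. These 6 genes, Cd300a, Cd300lb, Cd300ld, Cd300c2, Cd300lf and Milr1, were picked by gene symbol from the 49315 genes counted, and they were selected on their measured fold changes in this same comparison. Their differences between the groups are therefore given as descriptions, with errors and without tests.

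CD300 receptors are single-pass proteins of the immunoglobulin superfamily on myeloid cells, and several of them bind phosphatidylserine and other lipids that become exposed on dying cells. The family is split by its tails. Inhibitory members carry tyrosine motifs (ITIMs) that recruit the phosphatases SHP-1 and SHP-2, whereas activating members have short tails and signal through adaptors with activating motifs (ITAMs), DAP12 and the Fc receptor γ chain, to the kinase Syk. Allergin-1, the product of Milr1, is an ITIM receptor best known for restraining mast cell activation by IgE.

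The cells were bone marrow-derived macrophages (BMDMs) of C57BL/6 mice, grown in medium with 10 ng/ml M-CSF. The cells of all 8 libraries were transfected with gapmeRs (25 nM, Lipofectamine 3000), antisense oligonucleotides that direct RNase H to their target: 4 with gapmeRs against MAARS (libraries numbered 9, 11, 13 and 15) and 4 with negative control #1 (libraries 2, 5, 6 and 7). No library of untransfected cells was analysed here, and the labels do not say whether the replicates came from separate mice or cultures, so p-values measure only the spread between these samples, which may be technical. Ribodepleted RNA was sequenced, and the total per library was 19287279 to 20567123 counts in the controls and 20839671 to 24541205 in the MAARS gapmeR group.

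MAARS itself (Gm14461, ENSMUSG00000054510, chr2:78237547-78302230 on GRCm38, plus strand) was lower in every library that received its gapmeR. Its counts were 238, 296, 240 and 249 in the control libraries and 163, 161, 159 and 135 in the MAARS gapmeR libraries. In CPM, the counts scaled to library size with TMM factors, this was 13.1 ± 1.36 against 6.82 ± 0.844 (SD, n = 4), a decrease of 48.1% (log2 fold change -0.95, SE 0.112, edgeR adjusted p = 5.8e-05). The MAARS RNA was thus reduced by the gapmeR but still present. Among the 13051 genes tested, 45.4% passed the adjusted threshold of 0.05 in either direction, 21.3% as higher and 24.0% as lower in the MAARS gapmeR group, and 42.1% had CPM values that did not overlap between the groups. These shares are the background for each count of genes given here. Of the calls, 47.0% were higher, and 60.4% when libraries were scaled by their upper quartiles.

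The promoters of 4 of the receptors are shown because their RNA levels differed most between the groups: 2 inhibitory CD300 receptors that differed in opposite directions, the activating receptor with the lower level, and Milr1. Each line gives the 250 bases before and the 50 bases after the RefSeq start site, 5′ to 3′ along the gene (RefSeq, GRCm38.p6). Capitals mark the PU-box core GAGGAA, which on the opposite strand reads TTCCTC, and, in Cd300c2, an interferon-stimulated response element core, GAAANNGAAA.
Cd300a (chr11:114889791-114890090, plus strand): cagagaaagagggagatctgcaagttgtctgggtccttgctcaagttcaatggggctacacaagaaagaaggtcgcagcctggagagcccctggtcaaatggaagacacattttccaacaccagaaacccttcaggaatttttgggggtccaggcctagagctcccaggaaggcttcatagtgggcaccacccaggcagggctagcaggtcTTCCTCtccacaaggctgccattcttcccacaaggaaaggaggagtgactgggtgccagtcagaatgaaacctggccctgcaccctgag
Cd300c2 (chr11:115001831-115002130, minus strand): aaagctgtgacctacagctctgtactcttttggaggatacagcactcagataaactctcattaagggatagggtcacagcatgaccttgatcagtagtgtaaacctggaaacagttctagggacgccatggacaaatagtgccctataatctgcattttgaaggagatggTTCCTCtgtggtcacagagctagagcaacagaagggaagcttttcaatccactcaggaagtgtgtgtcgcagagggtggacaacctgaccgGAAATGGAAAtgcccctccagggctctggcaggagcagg
Cd300lf (chr11:115133943-115134242, minus strand): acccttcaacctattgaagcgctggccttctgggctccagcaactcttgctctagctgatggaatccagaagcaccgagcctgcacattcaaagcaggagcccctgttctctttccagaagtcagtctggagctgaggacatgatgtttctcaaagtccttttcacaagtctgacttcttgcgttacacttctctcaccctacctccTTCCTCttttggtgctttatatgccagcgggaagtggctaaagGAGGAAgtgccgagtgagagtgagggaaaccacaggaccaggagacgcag
Milr1 (chr11:106750976-106751275, plus strand): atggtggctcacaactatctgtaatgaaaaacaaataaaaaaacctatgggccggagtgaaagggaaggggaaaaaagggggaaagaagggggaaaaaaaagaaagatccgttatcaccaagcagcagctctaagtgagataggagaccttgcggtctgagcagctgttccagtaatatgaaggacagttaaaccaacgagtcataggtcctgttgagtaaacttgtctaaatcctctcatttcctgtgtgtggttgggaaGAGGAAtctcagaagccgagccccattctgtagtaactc

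PU.1, the factor that reads the PU-box, is a master regulator of myeloid genes. Its core was found on one strand or the other in the promoters of 5 of the 6 genes, all but Cd300lb, and in 28.3% of all 32851 promoters of this length. Cd300lf held it at 2 positions, 43 bases before the start site and at base 1 after it, on opposite strands. The interferon element core was found in 1 of the 6, Cd300c2, with its first base 12 bases into the transcript, and in 3.44% of all promoters. Neither the GAS letters TTCNNNGAA, bound by STAT factors and present in 8.3% of promoters, nor the AP-1 letters TGANTCA, present in 7.81%, occurred in any of the 6 windows. Both strands were searched for each motif, the motifs found did not overlap, and a match describes letters only.

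Cd300lf encodes an inhibitory receptor (CLM-1) that binds phosphatidylserine and ceramide and is the entry receptor for murine norovirus. Its gene (ENSMUSG00000047798) lies at chr11:115116214-115133992 on the minus strand. Its level was 111.6, 101.7, 136.2 and 136.5 CPM in the control libraries 2, 5, 6 and 7, and 30.5, 34.4, 34.5 and 46.2 CPM in the MAARS gapmeR libraries 9, 11, 13 and 15. The lowest control library was above the highest MAARS gapmeR library by a wide margin, and the controls were the more scattered group in CPM. The mean went from 121.5 ± 17.6 to 36.4 ± 6.82 CPM (SD, n = 4), a fold of 0.3 and a log2 fold change of -1.74 (SE 0.13), the largest of the 6 genes on the log2 scale. The values rest on 1996 to 2779 counts per control library and 644 to 1067 per MAARS gapmeR library.

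Cd300a (ENSMUSG00000034652, chr11:114890041-114904654, plus strand), the other inhibitory CD300 receptor of the group, carries several ITIMs and binds phosphatidylserine and phosphatidylethanolamine. It read 200.2, 243.2, 213.2 and 198.9 CPM in the controls and 353.3, 283.1, 318.5 and 327.7 CPM after the MAARS gapmeR. All 4 MAARS gapmeR libraries were above all 4 controls, and library 11 was the nearest to them. The mean was 213.9 ± 20.6 CPM in the controls and 320.6 ± 29.1 CPM in the MAARS gapmeR group (SD, n = 4), a log2 fold change of 0.58 (SE 0.0782) or 1.5-fold. These 2 inhibitory receptors sit at opposite ends of the CD300 cluster, and their levels differed in opposite directions.

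Milr1 (ENSMUSG00000040528) is on the same chromosome but apart from the CD300 cluster, at chr11:106751226-106768794 on the plus strand. Its level was 89.8, 91.1, 96.3 and 89.1 CPM in the controls and 48.5, 51.4, 54.9 and 49.3 CPM in the MAARS gapmeR libraries. The groups were far apart, and both were tight. The mean was 91.6 ± 3.24 CPM in the controls and 51.0 ± 2.85 CPM in the MAARS gapmeR group (SD, n = 4), a difference of -44.3% and a log2 fold change of -0.84 (SE 0.0513). Exons on the opposite strand overlap 5.34% of the exonic bases of Milr1, and whether the counting used strand is not given in the sources used here. On that strand, the gene body of Polg2, a subunit of the mitochondrial DNA polymerase, overlaps Milr1. The snRNA gene Gm25889 lies inside Milr1 on the same strand as Polg2, at 0.0128 ± 0.0256 CPM in the controls and 0.0108 ± 0.0217 CPM in the MAARS gapmeR group. Polg2 was at 6.73 ± 1.13 CPM in the controls and 6.56 ± 0.643 CPM in the MAARS gapmeR group (edgeR adjusted p = 0.839).

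Among the activating receptors, Cd300c2 (CLM-4 or MAIR-II; ENSMUSG00000044811, chr11:114996721-115001880, minus strand), which pairs with DAP12, was the lower one. Its values were 221.0, 230.9, 247.2 and 240.8 CPM in the controls and 196.5, 174.4, 204.4 and 207.8 CPM in the MAARS gapmeR libraries. The ranges were close to each other without touching. The mean was 235.0 ± 11.5 against 195.8 ± 15 CPM (SD, n = 4), a difference of -16.7% with a log2 fold change of -0.26 (SE 0.0605).

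Cd300lb (CLM-7; ENSMUSG00000063193, chr11:114922781-114934386, minus strand), another DAP12 partner, had 219.1, 238.7, 215.5 and 220.1 CPM in the controls and 250.9, 239.0, 246.6 and 242.5 CPM after the MAARS gapmeR. The groups were all but touching, since control library 5 at 238.7 CPM came just under MAARS gapmeR library 11 at 239.0 CPM. The mean was 223.4 ± 10.4 against 244.8 ± 5.14 CPM, a log2 fold change of 0.13 (SE 0.0448), which became 0.19 with upper-quartile factors.

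Cd300ld (CLM-5; ENSMUSG00000034641, chr11:114982274-114989922, minus strand), which pairs with the Fc receptor γ chain, was the one gene of the 6 whose groups overlapped. It read 275.1, 291.7, 305.4 and 279.1 CPM in the controls and 323.5, 286.3, 327.5 and 318.6 CPM in the MAARS gapmeR libraries, with library 11 inside the control range. The log2 fold change was 0.13 (SE 0.0547), with means of 287.8 ± 13.7 and 314.0 ± 18.8 CPM (SD, n = 4), and it was 0.19 with upper-quartile factors, the same value as for Cd300lb. All 6 genes passed the filter on low counts. The libraries of 5 of them did not overlap between the groups, beside 42.1% of all genes tested, and since this comparison chose the genes nothing is read from that count.

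**Figure D1:**
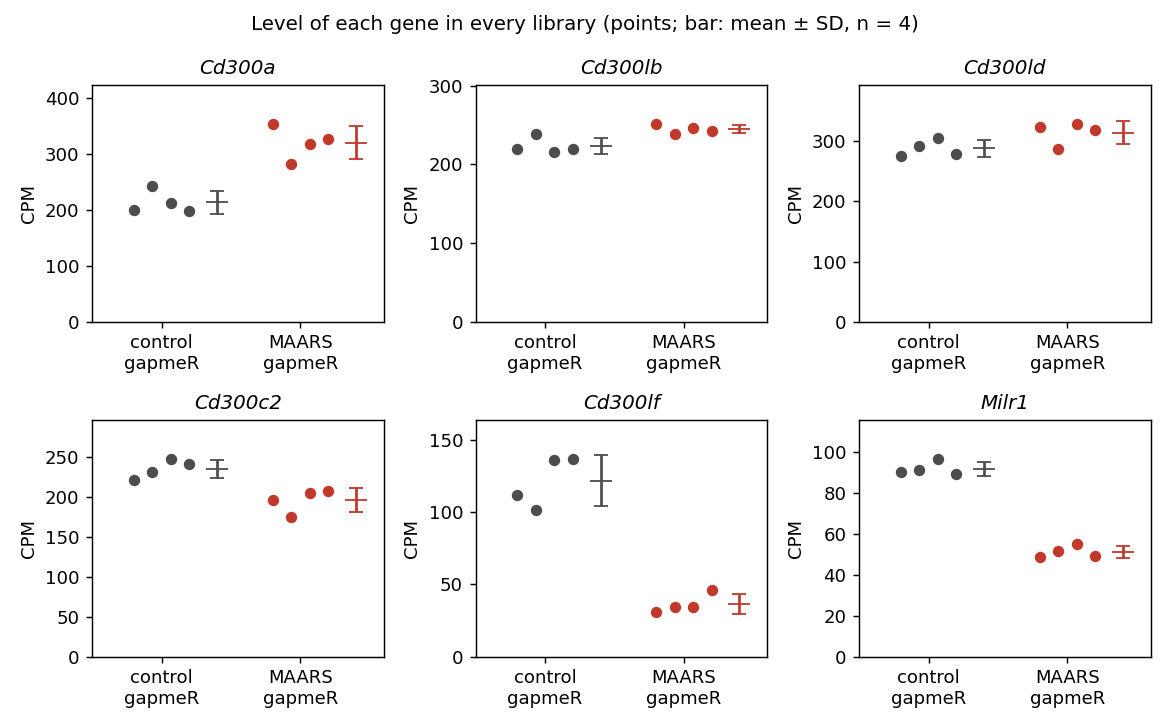
Level of each of the 6 genes in CPM (vertical axis, from 0), with 1 point for each of the 4 control and 4 MAARS gapmeR libraries and a bar for the mean ± SD. Cd300lf and Milr1 lie well below their controls and Cd300a above, Cd300c2 is slightly lower, and the groups of Cd300lb nearly touch while those of Cd300ld overlap.

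No bases in the exons of the 5 CD300 receptors belong to another gene's exons in the annotation, so no overlapping gene shares their counts. Exact 100-base stretches shared with another CD300 transcript made up 3.23% of the windows of Cd300c2 (shared with Cd300a), 1.37% of Cd300ld (shared with Cd300lf), 0.849% of Cd300a and 0.644% of Cd300lf, and 0 of those of Cd300lb and Milr1. The treatment of reads that map to several places is not given in the sources used here, and sequence shared with genes of other families was not searched.

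To compare one receptor with another, counts were divided by exon length (RPKM, which is CPM per kilobase of exon). On this scale Cd300c2 was the most abundant in the controls, at 184.3 ± 9 RPKM, followed by Cd300ld at 108.8 ± 5.17, Cd300lb at 76.6 ± 3.58, Cd300a at 45.1 ± 4.34, Milr1 at 37 ± 1.31 and Cd300lf at 23.6 ± 3.42 RPKM (SD, n = 4). No neighbours in this order overlapped in any library. In the MAARS gapmeR group the order of the 6 genes on this scale was the same, with 153.6 ± 11.8, 118.7 ± 7.12, 83.9 ± 1.76, 67.7 ± 6.13, 20.6 ± 1.15 and 7.07 ± 1.33 RPKM. This order depends on the length used, the union of all annotated exons, and which transcripts were expressed was not examined. By mean CPM, Cd300ld was the highest of the 6 in the controls (287.8) and Cd300a in the MAARS gapmeR group (320.6). In RPKM the order changed only against genes outside the 6. Cd300a passed Cd300ld3 (CLM-3), which was at 65.3 ± 3.09 RPKM in the controls and 60.1 ± 3.19 RPKM after the MAARS gapmeR, although the libraries of these genes overlapped in the latter group. Cd300lf, well above Cd300ld5 in the controls (5.9 ± 0.755 RPKM), came level with it in the MAARS gapmeR group (7.03 ± 0.947 RPKM). The levels of Cd300ld3 and Cd300ld5 are themselves uncertain, because most of their sequence is shared with other CD300 transcripts.

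**Figure D2:**
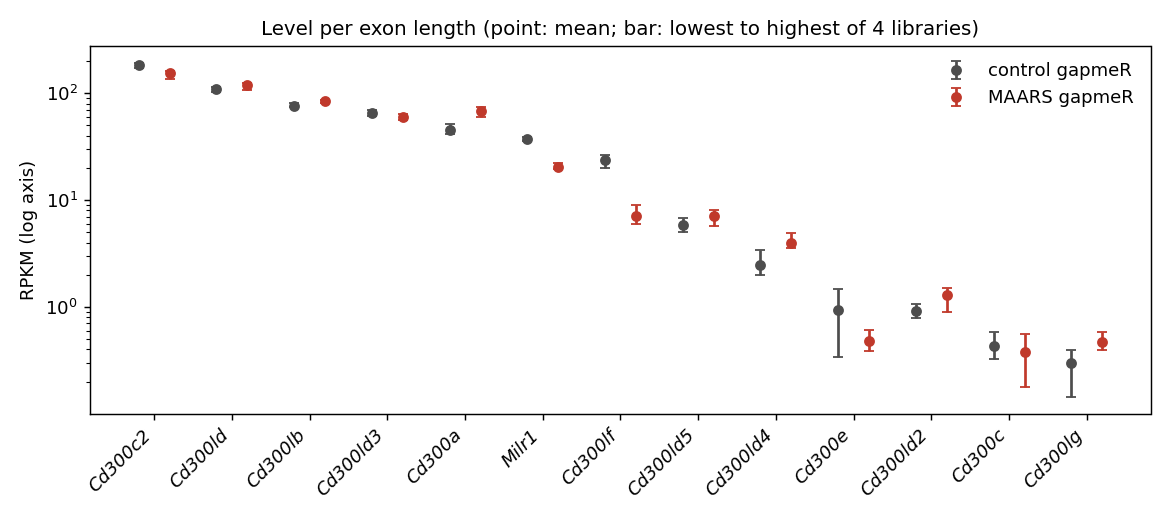
Level per exon length in RPKM on a log axis for Milr1 and all 12 Cd300 genes, ordered by their control mean, with the mean as a point and a bar from the lowest to the highest of 4 libraries in each group. The 6 genes from Cd300c2 to Milr1 are at 19.6 RPKM or more in every library, and Cd300lf moves down from 23.6 to 7.07 RPKM, near the level of Cd300ld5, which is itself uncertain.

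Summed over all 12 Cd300 genes, the pool of CD300 transcripts overlapped in size between the groups while its make-up differed. The sum was 490.2, 516.5, 536.3 and 515.8 RPKM in the controls and 517.8, 472.0, 515.4 and 513.2 RPKM in the MAARS gapmeR libraries, so the groups overlapped. It includes Cd300ld3, Cd300ld4 and Cd300ld5, whose levels are uncertain because they share most of their sequence. Within that pool Cd300c2 held 35.1 to 36.6% in the controls and 29.0 to 31.8% in the MAARS gapmeR group, and Cd300a 8.14 to 9.94% and 12.7 to 14.4%. The share of Cd300lf was 3.82 to 5.14% and then 1.14 to 1.75%. Cd300ld went from 20.5–21.5% to 22.9–24.0% and Cd300lb from 13.8–15.8% to 16.2–17.4%.

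**Figure D3:**
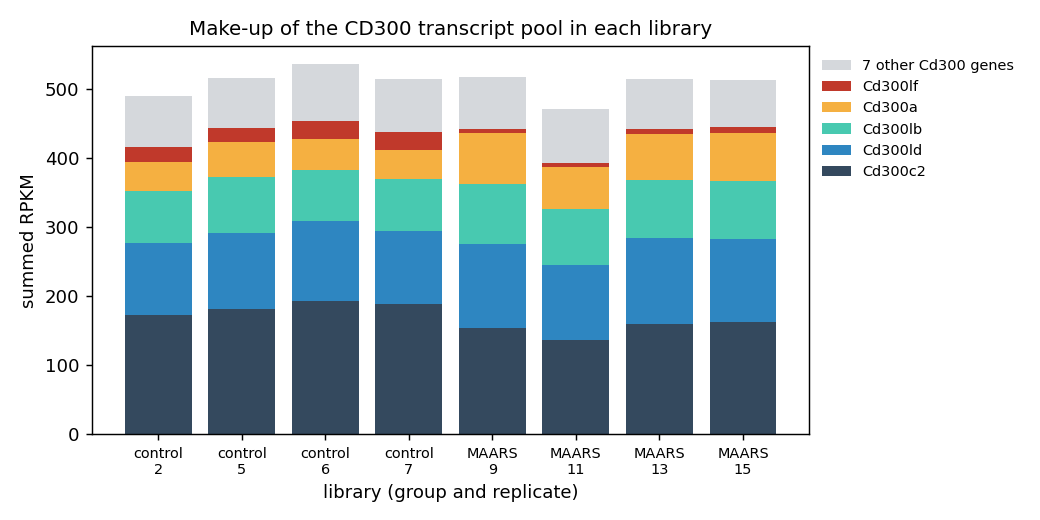
Summed RPKM of the 12 Cd300 genes in each of the 8 libraries, stacked by gene. The height is between 472.0 and 536.3 RPKM throughout, the Cd300a layer is thicker and the Cd300lf layer thinner in the 4 MAARS gapmeR libraries.

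The balance of the 2 inhibitory CD300 receptors, Cd300lf over Cd300a in RPKM, was 0.513, 0.385, 0.588 and 0.631 in the controls and 0.0793, 0.112, 0.0997 and 0.130 in the MAARS gapmeR libraries. The highest of the latter was below the lowest of the former. For the activating pair, Cd300ld over Cd300c2 was 0.559 to 0.609 in the controls and 0.739 to 0.794 after the MAARS gapmeR. The ratio of Cd300lb to Cd300a was 1.59 to 1.80 and 1.15 to 1.37. A ratio within a library shows that its 2 genes differed unequally and not which of them changed.

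Across the 8 libraries, log2 CPM of Cd300lf and Milr1 ran together (Pearson r = 0.97), but after each group's mean was subtracted the correlation was 0.03, so the likeness lies between the groups and not among replicates. Cd300c2 and Cd300ld had the opposite pattern, with r = -0.24 over the libraries and 0.84 for the deviations from the group means. Cd300a and Cd300lb were alike on both counts (0.94 and 0.81). These coefficients are descriptions over 8 points that share library preparation and scaling.

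Among all genes tested, those most like each receptor in log2 CPM over the 8 libraries were found by Pearson r. A high r over these libraries can come from the difference between the groups alone. Likeness among replicates was not computed for these genes, and shared regulation was not tested. Nearest to Cd300lf were Zfpl1 (0.9962), Slc15a3, a lysosomal peptide and histidine transporter (0.9958), and Tcirg1, a subunit of the lysosomal proton pump (0.9954). For Milr1 they were Mlx (0.9968), Slfn3 (0.9968) and the chemerin-binding receptor Ccrl2 (0.9954). Engase (0.9979), Serinc3 (0.9955) and the thyroid hormone receptor gene Thra (0.9950) were nearest to Cd300a, Stambpl1 (0.9888), Tspan31 (0.9738) and Fgd2 (0.9710) to Cd300c2. Mccc2 (0.9894), Gabarapl2 (0.9883) and Gm5086 (0.9855) were nearest to Cd300lb, and Tnfaip8 (0.9786), D230025D16Rik (0.9671) and Phkg2 (0.9651) to Cd300ld. The sizes of the differences were not alike: the ratio of the MAARS gapmeR level to the control level was 0.213 for Slfn3 and 0.557 for Milr1, and 0.77 for Zfpl1 against 0.3 for Cd300lf.

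The remaining 7 Cd300 genes, which the selection did not take, were mostly low. Of the 6 that could be tested, 1 was higher, Cd300ld4, and 0 were lower (edgeR, adjusted p under 0.05); at an unadjusted p under 0.05, 2 were higher and 1 lower, and DESeq2 called 1 of them, Cd300e, lower. Cd300ld4 read 1.69, 1.68, 2.92 and 2.21 CPM in the controls and 4.21, 3.14, 3.08 and 3.03 CPM in the MAARS gapmeR libraries, a log2 fold change of 0.66 (SE 0.207, edgeR adjusted p = 0.0219). That call was lost without control library 2, without control library 5 or without MAARS gapmeR library 9, and without control library 5 Cd300e was called lower instead. Cd300e, an activating receptor of monocytes, was at 1.93 ± 1.03 CPM in the controls and 0.998 ± 0.2 CPM after the MAARS gapmeR (log2 fold change -0.94, SE 0.376, edgeR adjusted p = 0.0616).

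Cd300ld3, the one abundant receptor outside the 6 genes, was at 55.7 ± 2.63 CPM in the controls and 51.2 ± 2.71 CPM in the MAARS gapmeR group (log2 fold change -0.12, SE 0.0548, edgeR adjusted p = 0.0959). Cd300ld5 had a log2 fold change of 0.25 (SE 0.137, edgeR adjusted p = 0.156) and Cd300ld2 one of 0.50 (SE 0.243, edgeR adjusted p = 0.111). Cd300ld3, Cd300ld4 and Cd300ld5 share most of their sequence, and Cd300ld2 a smaller part. Of the 100-base windows of Cd300ld5, 100% occur in another CD300 transcript, as do 86.7% of those of Cd300ld4, 80.9% of Cd300ld3 and 16.2% of Cd300ld2, and the promoters of Cd300ld4 and Cd300ld5 are identical over 300 bases. Counts from the shared windows could be split between copies, so the values of Cd300ld3, Cd300ld4 and Cd300ld5 are uncertain, and those of Cd300ld2 to a lesser extent. Cd300lg (CLM-9), an endothelial receptor outside the cluster at chr11:102041509-102055620, was at 0.813 ± 0.293 and 1.29 ± 0.224 CPM (edgeR adjusted p = 0.0826), and Cd300c, with 4 to 13 counts per library, did not pass the filter.

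**Figure D4:**
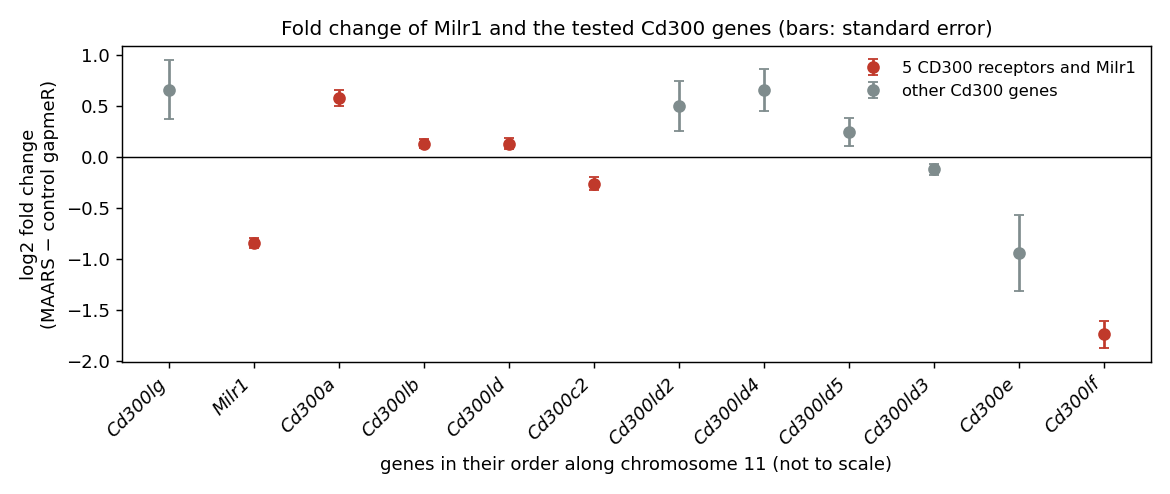
Log2 fold change (MAARS gapmeR minus control gapmeR, bars for the standard error) of Milr1 and the 11 tested Cd300 genes in their order along chromosome 11, which is not drawn to scale. Cd300a at one end of the cluster is at 0.58 and Cd300lf at the other end at -1.74, with the genes between them from -0.94 to 0.66.

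Of the 12 Cd300 genes 11 lie in a cluster of 244.0 kb (chr11:114890041-115133992). Of 12 other genes tested in it or within 250 kb of its ends, 1 was higher and 2 were lower. The nearest gene below Cd300a, the orphan receptor gene Gprc5c at 17.4 kb, rose 5.04-fold from 4.38 ± 0.959 to 22.2 ± 6.64 CPM (log2 fold change 2.33, SE 0.219, edgeR adjusted p = 1.26e-05). The next tested gene on that side, the kinesin gene Kif19a at 99.3 kb, had a log2 fold change of -0.25 (SE 0.22, edgeR adjusted p = 0.377). Beyond Cd300lf came Slc9a3r1 at 29.3 kb, a scaffold of membrane proteins, with 247.9 ± 7.13 and 246.4 ± 10.2 CPM (edgeR adjusted p = 0.892), and Nat9 at 48.8 kb, which fell by 18.0% (log2 fold change -0.29, SE 0.064, edgeR adjusted p = 0.0038). The other lower gene was Tmem104 at 53.5 kb (-0.23, SE 0.0571, edgeR adjusted p = 0.00612). Rab37, whose gene body on the plus strand spans Cd300lf, was at 1.19 ± 0.145 and 0.808 ± 0.15 CPM (log2 fold change -0.56, SE 0.231, edgeR adjusted p = 0.0671). Around Milr1, 2 of 7 tested genes were higher and 0 lower. Beside Polg2, which overlaps it, the nearest tested genes were Pecam1 at 0.598 kb (log2 fold change -0.19, SE 0.239, edgeR adjusted p = 0.545) and Ddx5, an RNA helicase gene, at 11.6 kb (-0.02, SE 0.0614, edgeR adjusted p = 0.78), then Cep95 at 20.5 kb (-0.20, SE 0.0904, edgeR adjusted p = 0.0895). The higher ones were Tex2 at 137.8 kb (0.40, SE 0.0634, edgeR adjusted p = 0.000394) and Kpna2 at 219.8 kb (0.32, SE 0.0932, edgeR adjusted p = 0.0148).

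Partners through which receptors of these types signal were read from lists grouped by known function. The lists were chosen with earlier results of these data known, so their counts and medians are descriptions. Of all genes tested, 24.0% were lower and 21.3% higher. Of the 3 adaptors, Fcer1g, the Fc receptor γ chain that carries Cd300ld, fell from 687.7 ± 43.3 to 506.0 ± 2.65 CPM (log2 fold change -0.44, SE 0.0509, edgeR adjusted p = 4.72e-05). Tyrobp, which encodes DAP12, was at 840.1 ± 54.9 and 769.4 ± 27.5 CPM (log2 fold change -0.13, SE 0.0551, edgeR adjusted p = 0.081). It was called lower without control library 7. Hcst, which encodes the adaptor DAP10, was far less abundant and higher, at 8.83 ± 0.751 and 10.5 ± 0.493 CPM (log2 fold change 0.25, SE 0.0899, edgeR adjusted p = 0.0386), but that call was lost without any one of control libraries 5, 6 and 7 or MAARS gapmeR libraries 9, 11 and 15.

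The effectors listed were phosphatases, adaptors and a kinase of ITIM receptors in general, and not all are known to act with Cd300a, Cd300lf or allergin-1. They were lower in 4 of 7 cases, higher in 1 and not called in 2. Their median log2 fold change was -0.21, against 0.01 for all genes tested. Ptpn6 (SHP-1) fell from 342.0 ± 14.9 to 233.7 ± 14.2 CPM (log2 fold change -0.55, SE 0.0541, edgeR adjusted p = 1.68e-05). Dok1, an adaptor that dampens kinase signalling, and Csk, the kinase that switches off Src family kinases, fell as well (log2 fold changes -0.43, SE 0.0663, and -0.38, SE 0.0637; edgeR adjusted p = 0.000345 and 0.000635). The fourth was Ptpn11 (SHP-2), and the one that rose was Inpp5d, which encodes the lipid phosphatase SHIP-1 (0.16, SE 0.0452, edgeR adjusted p = 0.0145). Kinases and effectors of ITAM receptors were lower in 6 of 17 cases, higher in 2 and not called in 9, with a median of -0.10. The 2 with the smallest p were the adaptor Lat2 (-0.61, SE 0.0497, edgeR adjusted p = 6.49e-06) and the exchange factor Vav1 (-0.57, SE 0.047, edgeR adjusted p = 7.12e-06). Exons on the opposite strand overlap 36.3% of the exonic bases of Lat2. The 2 that rose were the kinases Syk, to which DAP12 and the Fc receptor γ chain pass their signal (373.1 ± 21.3 and 528.9 ± 19.3 CPM, edgeR adjusted p = 2.17e-05), and Fyn (34.2 ± 3.14 and 46.7 ± 2.1 CPM, edgeR adjusted p = 0.000334).

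Other receptors of the same signalling types were counted as well, from lists also chosen with earlier results known, so these counts are descriptions too. Of 15 other ITIM receptors tested, 7 were lower, 2 higher and 6 not called, with a median log2 fold change of -0.47. Pirb, a receptor for MHC class I whose sequence is close to that of the Pira genes and whose counts may therefore be shared with them, fell from 628.5 ± 58.0 to 407.7 ± 18.5 CPM (edgeR adjusted p = 2.86e-05). Cd72 fell from 228.6 ± 70.0 to 66.4 ± 16.1 CPM (edgeR adjusted p = 7.57e-05), although exons on the other strand overlap 41.6% of its exonic bases, and the inhibitory Fc receptor gene Fcgr2b rose from 171.2 ± 27.4 to 322.1 ± 57.5 CPM (edgeR adjusted p = 0.000257). The other gene that rose was Sirpa, the receptor for CD47 (0.22 on the log2 scale, SE 0.0541, edgeR adjusted p = 0.00598). Both directions seen in Cd300a and Cd300lf occurred among the other inhibitory receptors.

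Of 15 other ITAM-coupled receptors tested, 12 were lower, 1, Fcgr3, was higher, and 2 were not called, with a median of -0.78. The smallest p values were those of Clec5a, a DAP12-coupled lectin (49.2 ± 4.14 and 24.3 ± 2.03 CPM, edgeR adjusted p = 5.27e-06), the IgG receptor gene Fcgr4 (251.2 ± 43.0 and 89.7 ± 9.43 CPM, edgeR adjusted p = 5.45e-06) and Cd200r4 (89.6 ± 3.41 and 56.5 ± 3.57 CPM, edgeR adjusted p = 6.62e-06). Of 9 other phosphatidylserine receptors tested, 4 were higher, 2 lower and 3 not called, with a median of 0.19. Stab1 rose from 572.8 ± 57.5 to 1539.2 ± 213.3 CPM (edgeR adjusted p = 5.27e-06) and Stab2, its relative, from 19.2 ± 3.11 to 31.8 ± 2.97 CPM (edgeR adjusted p = 0.00032), whereas Axl, a receptor kinase that binds the lipid through Gas6, fell from 123.3 ± 27.0 to 52.4 ± 10.4 CPM (edgeR adjusted p = 0.000109). The others called were Itgb5 and Mertk as higher and Havcr2 (TIM-3) as lower, and the call of Mertk, at an edgeR adjusted p of 0.0418, was lost without any one of control libraries 2, 5, 6 and 7 or MAARS gapmeR libraries 9 and 13.

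**Figure D5:**
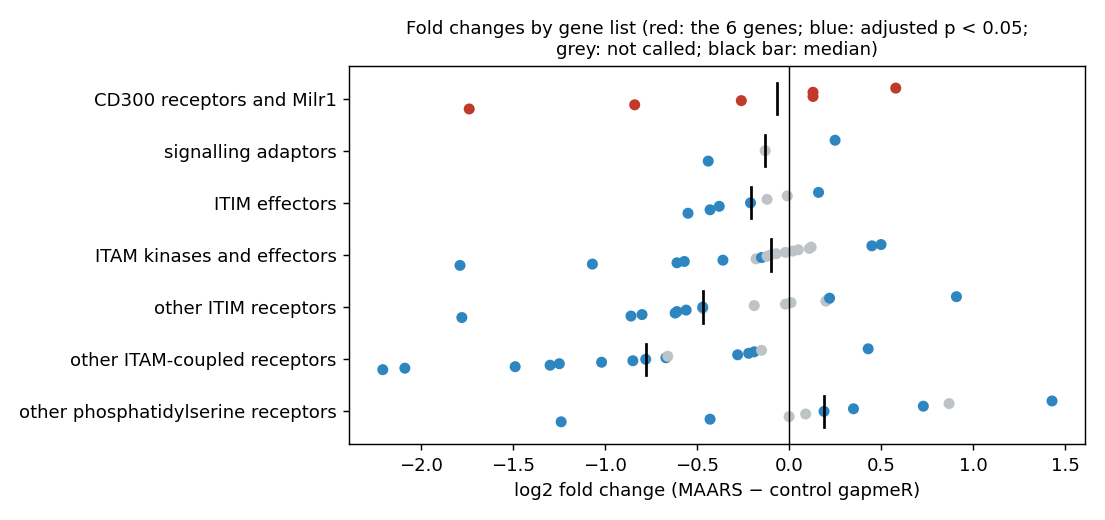
Log2 fold change (horizontal axis, MAARS gapmeR minus control gapmeR) of each tested gene, by list, with the 6 receptor genes in red, genes with an edgeR adjusted p under 0.05 in blue, other genes in grey and the median as a black bar. The median is at -0.78 for the other ITAM-coupled receptors and at 0.19 for the other phosphatidylserine receptors.

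The libraries were checked for cells that could bring CD300 receptors or allergin-1 with them, since in bulk RNA fewer cells of a type and less RNA per cell cannot be told apart. Macrophage markers were high in all 8 libraries, with a summed level of 15646 to 18796 CPM in the controls and 18438 to 21709 CPM in the MAARS gapmeR group. Of these 9 markers 4 were higher and 4 lower, and Adgre1, which encodes F4/80, was at 1295.9 ± 65.3 and 1331.6 ± 36.4 CPM (edgeR adjusted p = 0.553). Mast cells are the best known site of allergin-1. Of 9 mast cell markers 4 were at 0 in every library, the proteases Mcpt4, Tpsb2 and Cma1 and the IgE receptor chain Fcer1a, and all 9 together summed to 2 to 4.52 CPM in the controls and 0.993 to 1.67 CPM after the MAARS gapmeR, against 89.1 to 96.3 and 48.5 to 54.9 CPM for Milr1. Only 2 of the mast cell markers were abundant enough to test. Of these Hdc, which makes histamine, was called lower, at 1.75 ± 0.798 and 0.433 ± 0.113 CPM (edgeR adjusted p = 0.00132).

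Neutrophil markers summed to 101.7 to 299.5 CPM in the controls and 105.5 to 168.5 CPM in the MAARS gapmeR group, and 0 of the 7 tested were called. Fibroblast markers summed to 457.2 to 1042.9 and 716.2 to 1230.1 CPM, with 0 of 5 called. The collagen genes Col1a1 (means of 335.3 and 436.5 CPM) and Col1a2 (351.4 and 436.5) were the largest parts of that sum. Col3a1 was at 26 and 30.4 CPM, and the other markers were low: Pdgfra at 2 and 2.32, Dcn at 2.97 and 1.72, and Lum at 0 and 0.0438 CPM. Dendritic cell markers reached at most 2.7 CPM in sum, with 0 of 1 called, and lymphocyte markers at most 0.54 CPM, with none abundant enough to test. The part of such cells in the values of the CD300 genes was not tested.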

How the data were processed

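RNA-Seq of 8 BMDM libraries was used, 4 per group as given by the labels. The deposited values are raw counts per gene, not normalized; the authors trimmed reads with Trimmomatic 0.36, aligned them with STAR 2.5.2b to GRCm38 and counted them with featureCounts from Subread 1.5.2 (versions from the submitters' processing notes). Strand setting and treatment of multi-mapping reads are not given in the sources used here.

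Genes were matched by Ensembl ID to GENCODE M21 (99.3% found). Filtering was with filterByExpr (minimum count 10, minimum total 15), which left 13051 genes. They were fitted with edgeR 4.0.16 in R 4.3.3 (TMM factors, quasi-likelihood test, Benjamini-Hochberg adjustment over all genes tested, threshold 0.05). The SE of a log2 fold change was its size divided by the square root of F. CPM values were TMM-normalized, and RPKM divided CPM by the union of exons. Chi-square between replicates was 4.02 to 14.1 per gene, so no pair was 1 library deposited again. Alternatives were RLE and upper-quartile factors, DESeq2 1.42.0, limma-voom (limma 3.58.1), no filter, a mean count of at least 10, and each library left out in turn.

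The members and lists were chosen with earlier results of these data known. Named genes were the 6 members, the other Cd300 genes, the 3 adaptors, the 3 called genes with the smallest p of each other list, the 2 tested genes nearest each side of the cluster and of Milr1, the 3 genes most like each member by Pearson r, and MAARS; some genes that this rule names are not reported here. Of the ITIM receptor list, 15 of 16 genes were matched. Other genes named for a count of 5 or fewer, or as cell type markers, were chosen after their values were seen. Promoters came from RefSeq (GRCm38.p6).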

Additional observations from a re-analysis of the deposited data

Results flagged for a closer look

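Of 24 groups of 4 libraries examined for Milr1 and the tested Cd300 genes, 1 held a library far from the others: Cd300ld4 was at 4.21 CPM in MAARS gapmeR library 9, against 3.03 to 3.14 CPM in the other libraries of that group. The gap to the nearest library was 0.907 of the group's range, above Dixon's critical value at the 95% level for 4 libraries. Chance sets apart about 1 such group in 20. The higher level of Cd300ld4 was no longer called without this library.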

How the results depend on the processing

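Over 14 alternatives, none of the 6 receptor genes changed direction. With upper-quartile factors, which shift the median of all genes by 0.06 on the log2 scale, the log2 fold changes of Cd300lb and Cd300ld were both 0.19, against 0.13 for each in the fit reported. The number of other Cd300 genes called was 1 in the fit reported, 2 with DESeq2 and 2 with no filter (Cd300e was added), and 0 to 1 with a library left out; without control library 5 the 1 called was Cd300e, as lower, and not Cd300ld4. The number of adaptors called was 2 in the fit reported, 1 with no filter (Hcst was lost), and 1 to 2 with a library left out. Genes called higher numbered 2782 and lower 3137, and 3622 and 2379 with upper-quartile factors. With each library left out in turn the log2 fold change ranged from -1.87 to -1.67 for Cd300lf, from -0.88 to -0.82 for Milr1, from 0.53 to 0.65 for Cd300a, from -0.29 to -0.21 for Cd300c2, from 0.11 to 0.16 for Cd300lb and from 0.10 to 0.17 for Cd300ld. No paired analysis was possible because the groups compared share no replicate numbers. Depth limits the genes with few counts, such as Cd300c at 4 to 13 per library, and not the 6 receptors.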
